A study of Mus musculus with 3 samples.

Results

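The NK_T_Cytolytic cluster is a small group of lymphocytes in mouse melanomas. Its members are the cells to which the deposited cell table gives the name NK_T_Cytolytic, 97 of 12670 cells in all. The cells came from 3 tumors of mice labelled C57BL/6 (bred into C57BL/6J in the study's methods) of a model with a Braf LSL.V600E allele and Tyr.CreER, some of them also with a Rosa26 LSL.tdTomato reporter, and whether the sampled animals carried the reporter was not in the labels. In this model 4-OH tamoxifen put on the flank skin switches on the mutant Braf allele where the Tyr promoter drives CreER, which is in melanocytes, so lymphocytes are not targeted. There was 1 tumor per group: 1 was untreated, 1 had regressed under vemurafenib and 1 had progressed under vemurafenib, an inhibitor of the mutant Braf kinase given by oral gavage. Tumors were digested to single cells, no sort before capture is described in the sources used here, and transcripts were counted in droplets from their 3' ends. Of the members, 15 came from the untreated, 58 from the regressed and 24 from the progressed tumor. With 1 tumor per group nothing here was tested between conditions, and all intervals are 95% intervals that cover counting error only.

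Cytotoxic lymphocytes kill by releasing perforin, which opens the target's membrane, together with granzymes, the proteases that then enter it. Natural killer cells read targets through germline-encoded receptors of the Klr and Kir families and have no CD3 complex, whereas T cells carry the CD3 chains with their antigen receptor. Some T cells of skin and other barrier tissues hold both kinds of receptor and lack CD4 and CD8. Fcer1g and Tyrobp encode adaptors that pass on signals from activating receptors of killer and myeloid cells.

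A unique molecular identifier (UMI) marks 1 captured transcript, and levels are given as counts per 1000000 (CPM) of the summed UMIs of a cluster in a tumor. Values of the tumors stand in the order untreated, regressed, progressed unless a tumor is named. The members held 38409, 194720 and 80941 UMIs in all. Their median depth was 2931, 2951 and 2965 UMIs per cell in that order, and single cells ranged from 693 to 13816 UMIs. At 0 UMIs, a gene could still have stood at up to 78.1, 15.4 and 37.1 CPM. The libraries shared 0 cell names. In the regressed tumor lymphocyte transcripts also reached other cells: after thinning to 1000 UMIs per cell, 6.92% of its non-immune stroma cells held a Cd3d, Cd3e or Cd3g UMI, compared with 0.192% (untreated) and 0.265% (progressed).

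The 4 genes that mark the cluster, Prf1 (perforin), Nkg7 (a protein of cytotoxic granule release), Cd7 (a surface protein of T and NK cells) and Trat1 (a transmembrane adaptor of the T cell receptor), were high in all 3 tumors. The stretches of 250 bases before the transcription start of 3 of them, and of Avil and Cd3g, are shown because these genes set the cluster apart below. They are RefSeq sequences of build GRCm38.p6, written 5' to 3' on the gene's strand, and capitals mark matches on either strand to GGTGTGA (T-box factors), TGTGGT (Runx factors) or GGAAGT (Ets factors). Prf1 lies at chr10:61297586-61297835 (+), Nkg7 at chr7:43436888-43437137 (+), Trat1 at chr16:48772063-48772312 (-), Avil at chr10:127000459-127000708 (+) and Cd3g at chr9:44980432-44980681 (-). The fourth marker, Cd7, is named only.
Prf1: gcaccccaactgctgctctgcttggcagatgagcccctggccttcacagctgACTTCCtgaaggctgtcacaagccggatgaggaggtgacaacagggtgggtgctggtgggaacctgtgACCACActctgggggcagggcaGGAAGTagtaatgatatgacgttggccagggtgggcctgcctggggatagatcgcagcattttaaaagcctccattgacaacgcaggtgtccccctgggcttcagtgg
Nkg7: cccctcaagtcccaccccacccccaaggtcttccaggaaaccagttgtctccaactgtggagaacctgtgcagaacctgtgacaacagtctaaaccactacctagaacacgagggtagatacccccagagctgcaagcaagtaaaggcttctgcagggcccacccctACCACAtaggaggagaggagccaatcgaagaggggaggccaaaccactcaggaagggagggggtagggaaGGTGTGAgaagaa
Trat1: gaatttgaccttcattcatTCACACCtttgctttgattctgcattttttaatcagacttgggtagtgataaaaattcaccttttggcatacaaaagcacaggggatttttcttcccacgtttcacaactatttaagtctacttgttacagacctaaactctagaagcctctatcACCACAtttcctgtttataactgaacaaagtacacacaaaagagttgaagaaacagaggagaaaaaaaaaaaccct
Avil: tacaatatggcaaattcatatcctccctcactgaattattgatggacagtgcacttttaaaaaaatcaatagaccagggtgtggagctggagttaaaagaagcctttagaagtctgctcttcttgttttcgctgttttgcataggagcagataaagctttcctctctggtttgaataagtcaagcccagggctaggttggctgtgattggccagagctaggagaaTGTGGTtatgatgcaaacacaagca
Cd3g: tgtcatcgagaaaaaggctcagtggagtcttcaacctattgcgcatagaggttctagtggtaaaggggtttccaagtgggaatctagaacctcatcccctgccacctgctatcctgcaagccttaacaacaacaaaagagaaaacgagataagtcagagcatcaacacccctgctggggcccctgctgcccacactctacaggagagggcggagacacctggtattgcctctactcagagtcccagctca

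The Prf1 window held 1 Runx match and 2 Ets matches, that of Nkg7 and that of Trat1 each 1 T-box and 1 Runx match, that of Avil 1 Runx match, and that of Cd3g 0 matches. In Nkg7 the T-box letters lay 13 to 7 bases before the start. Among 27025 genes with such windows, 3.84% held the T-box letters, 15.9% the Runx letters and 22.2% the Ets letters. Of the 15 genes named below as higher in this cluster than in NK_T, 13 had a window, and 1, 2 and 2 of these held the T-box, Runx and Ets letters. Of the 15 named as lower, 11 had a window, and 0, 4 and 4 held them. A match is a run of letters and was not tied to binding.

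NK_T_Cytolytic cells made up 1.42% of the immune cells of the untreated tumor (15 of 1053 cells, exact Clopper-Pearson interval 0.799 to 2.34%), 6.06% in the regressed tumor (58 of 957 cells, 4.63 to 7.76%) and 3.51% in the progressed tumor (24 of 683 cells, 2.26 to 5.18%). The interval of the regressed tumor lay above that of the untreated tumor, and those of the progressed tumor overlapped both. The NK_T cluster, the other lymphocyte cluster of the table, held 2.37%, 18.8% and 2.49% of immune cells. Within both clusters together the cytolytic cells were 37.5% (22.7 to 54.2%), 24.4% (19.1 to 30.3%) and 58.5% (42.1 to 73.7%). The cluster was thus the smaller of both in the untreated and the regressed tumor and the larger in the progressed tumor, at 24 against 17 cells. With 1 tumor each, the difference between treatments and that between animals cannot be told apart.

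**Figure D1:**
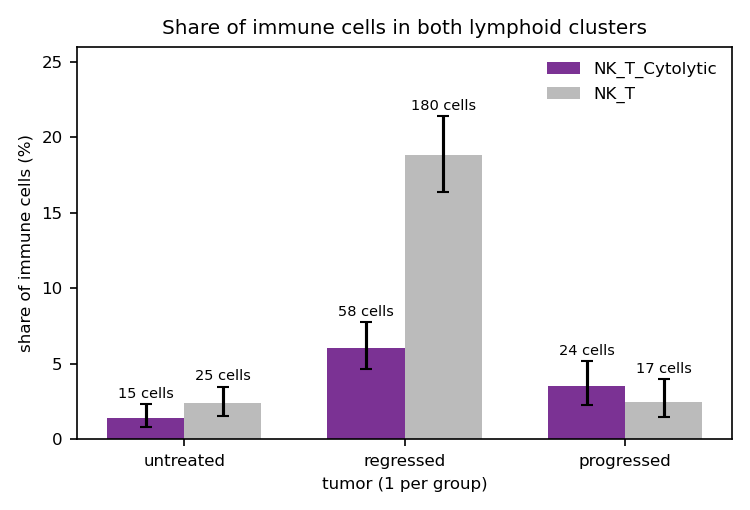
Share of immune cells (y axis, %) held by the NK_T_Cytolytic and NK_T clusters in each tumor (x axis, 1 tumor per group), with 95% Clopper-Pearson intervals and the number of cells above each bar. The NK_T_Cytolytic bar is lowest in the untreated tumor (1.42%) and highest in the regressed tumor (6.06%), where NK_T reaches 18.8%.

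The levels of the marker genes are a description and not a check of the label, since the clusters were made from these genes. Prf1 stood at 937, 709 and 680 CPM, and 86.7%, 79.3% and 75.0% of the members held a UMI of it. Nkg7 stood at 5858, 4191 and 3472 CPM and was found in every member. Cd7 stood at 9867, 5023 and 7092 CPM and was likewise found in every member, and Trat1 stood at 1432, 1315 and 865 CPM. All 4 were high in each tumor. After thinning to 1000 UMIs per cell, 35.7%, 48.2% and 50.0% of the members held a Prf1 UMI, against 0%, 0.173% and 0% of stroma cells. In the regressed tumor, NK_T cells had 35.3 CPM of Prf1, 524 CPM of Nkg7, 197 CPM of Cd7 and 74.3 CPM of Trat1. The highest Prf1 level in a myeloid cluster of any tumor was 7.42 CPM, from 2 UMIs.

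The 25 genes with the largest ratio of their level to the mean level of 20 other clusters in the regressed tumor extend this picture, as a description, since the clusters were made from these genes. Inhibitory receptors of the NK type led them, Kir3dl1 at 533 times the mean of the other clusters and Kir3dl2 at 189 times. Avil, the actin-binding protein advillin, was at 236 times, Prf1 at 168 times, Trat1 at 112 times, Klrb1b at 82.8 times, Cd7 at 68.8 times and Nkg7 at 65.1 times. T cell genes stood beside them: Cd3g at 57.4, Cd3e at 52.7 and Cd247, the zeta chain of the receptor complex, at 39.8 times. Further receptors among the 25 were Il12rb2 (a chain of the interleukin 12 receptor, 69.7 times), Cd96 (a nectin-binding receptor, 64.8 times), Tnfrsf9 (the costimulatory receptor 4-1BB, 44.9 times), Klrd1 (42.6 times) and Klrk1 (NKG2D, 39.3 times). The chemokine gene Xcl1, whose product attracts dendritic cells that carry Xcr1, was at 39.1 times. The list also held genes not known as lymphocyte markers, among them Olfm3 (143 times), the lens protein gene Lim2 (120 times) and the magnesium channel gene Trpm6 (101 times).

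**Figure D2:**
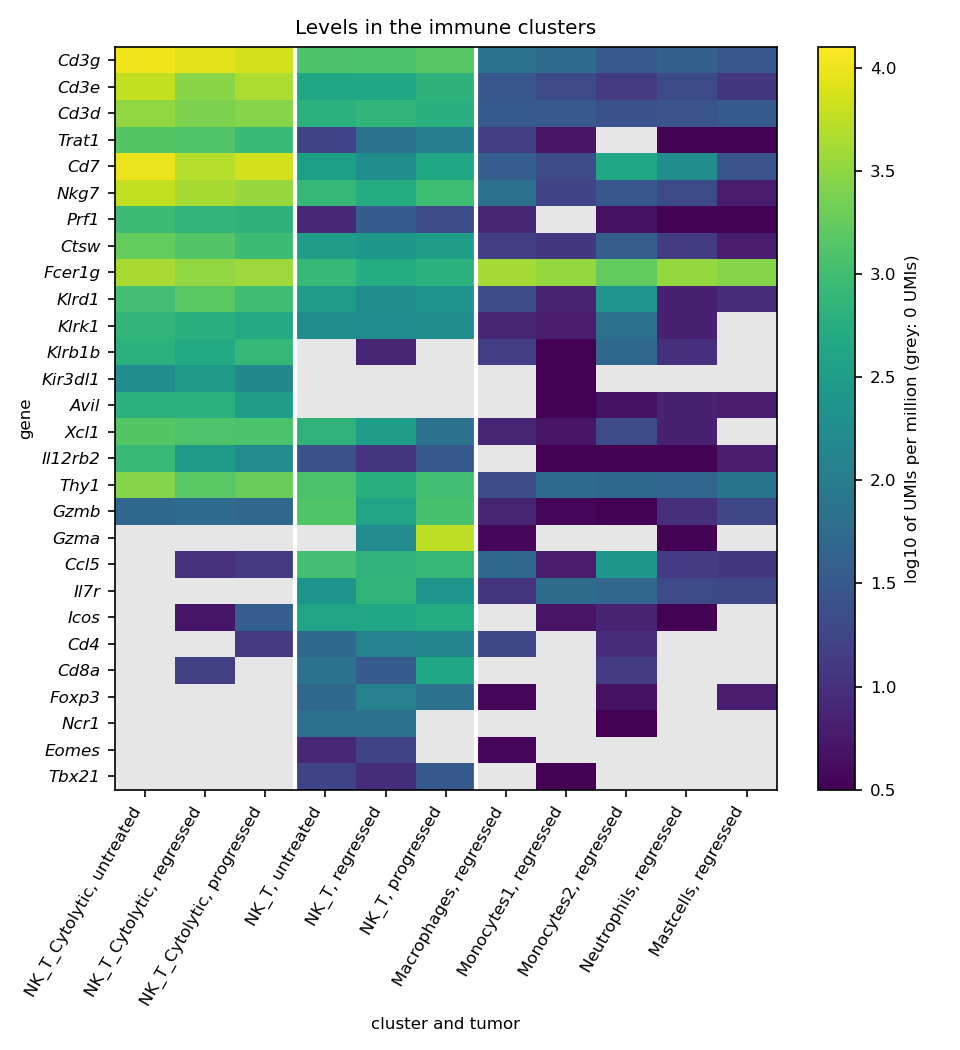
Levels of marker and receptor genes (rows), as log10 of CPM, with grey for 0 UMIs. Columns are NK_T_Cytolytic and NK_T of each tumor and the other immune clusters of the regressed tumor. The NK_T_Cytolytic columns hold Prf1, Trat1, Cd7 and Nkg7 above NK_T in each tumor and above every other immune cluster in the regressed tumor. Fcer1g is at a similar level in myeloid clusters of the regressed tumor.

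CD3 chains were found throughout the cluster. Every member held at least 1 UMI of Cd3d, Cd3e or Cd3g, and the summed count per cell had medians of 42 (range 15 to 103), 45 (2 to 179) and 43 (11 to 107). NK_T cells had medians of 9, 6 and 11. Cd3g stood at 10544, 8335 and 7252 CPM, against 1208 CPM in NK_T cells of the regressed tumor. Downstream of these chains, Lck, Zap70, Lat and Lcp2, which carry the receptor signal, were closer to NK_T, with Lck at 621 CPM against 474 CPM in the regressed tumor. Coreceptors were nearly absent: Cd4 had 1 UMI in all 97 members, and Cd8a and Cd8b1 had 3 UMIs each, from 1 cell of the regressed tumor. Other surface proteins of conventional T cells were also low. Cd27 had 0 UMIs in all 3 tumors, Cd5 had 1 UMI and Cd6 3 UMIs, both in the regressed tumor, where NK_T cells held 46, 88 and 126 UMIs of these genes. Thy1, a surface protein of T cells, was above NK_T in each tumor at 2760, 1515 and 1890 CPM against 1174, 606 and 1017 CPM. The constant and variable genes of the antigen receptor chains were not analysed here.

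Cells with a CD3 chain and an NK receptor were counted with a small fixed set, Ncr1 (NKp46), Klrb1c (NK1.1) and Klre1. In the regressed tumor 20 of 58 members held both a CD3 chain and 1 of these receptors, in the progressed tumor 8 of 24, and in the untreated tumor 0 of 15, which by the floor of 3 counts allows up to 20% of cells with such a UMI and does not limit the cells that express these genes. Since every member held a CD3 chain UMI, none could hold a receptor of the set without one. Klrb1c gave most of these calls, with 0, 28 and 9 UMIs, Klre1 had 0, 8 and 0, and Ncr1 had 0 in each tumor. In the regressed tumor 31.0% of members held a Klrb1c UMI, against 6.11% of NK_T and 0.469% of stroma cells, at median depths of 2951, 2652.5 and 3151.5 UMIs. The defining NK genes Ncr1 and Eomes and the T-box gene Tbx21 were at 0 in all 3 tumors, as were 11 further genes of the NK list, the receptors Klrc1, Klrc2, Klrg1, Klra1, Klra3, Klra4, Klra7, Klra8 and Klra9 and the integrin genes Itga1 and Itga2. Several of these receptor genes have close copies, and since reads that mapped to 1 place alone were counted, their values are uncertain. NK_T cells held UMIs of each of the 11 in at least 1 tumor.

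The granzymes differed among themselves. Gzma, the granzyme A gene, had 0 UMIs in all 3 tumors, while NK_T cells held 0, 92 and 554 UMIs, the 92 in 8 of 180 cells and the 554 in 1 of 17 cells. Gzmb, the granzyme B gene, stood at 52.1, 56.5 and 49.4 CPM, against 1347, 394 and 1120 CPM in NK_T. It was found in 1 of 15, 4 of 58 and 4 of 24 members, against 10 of 25, 38 of 180 and 3 of 17 NK_T cells. The level was thus lower than in NK_T in each tumor, but in the progressed tumor 105 of the 109 NK_T UMIs came from 1 cell and the shares of cells with Gzmb were alike. Gzmc, the granzyme C gene, stood at 104, 488 and 222 CPM against 620, 149 and 20.5 CPM in NK_T, so it was below NK_T in the untreated and above it in the other tumors, and its 95 UMIs in the regressed tumor came from 10 of 58 cells, with 41 in 1 of them. Single cells also held 70 of the 75 Gzmc UMIs of NK_T in the untreated tumor and 14 of the 18 of the members in the progressed tumor. Gzmd, Gzme, Gzmf, Gzmg, Gzmk and Gzmm had 0 UMIs in every tumor. Prf1 and Nkg7 were thus high, Gzmb low, Gzmc in a minority of members, and Gzma, Ncr1, Eomes and Tbx21 at 0. The cells are called here by the deposited name.

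Against NK_T cells of the regressed tumor (58 against 180 cells), 624 of 6220 genes with at least 20 UMIs over both clusters were at least 2-fold higher in NK_T_Cytolytic (10.0%) and 727 at least 2-fold lower (11.7%). With edgeR's TMM scaling, which lowered the ratios by 0.16 on the log2 scale, 494 were higher and 892 lower. Both clusters were defined from these genes, so the ratios describe the clusters and nothing was read from the shares. A gene with 0 UMIs on 1 side was compared with a floor of 3 UMIs over the cluster, which gives a bound.

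Of the 19 cytotoxic genes listed, 14 had at least 20 UMIs, of which 7 were at least 2-fold higher and 4 lower. The summed list was 1.43 higher on the log2 scale (1.34 to 1.53). It holds 2 of the genes that mark the cluster, Prf1 and Nkg7. In the regressed tumor these gave 138 and 816 of the 1670 UMIs of the list in the members. The sum thus counts these markers again, and a sum without them was not made. The list was also higher in the untreated tumor, at 10544 against 5686 CPM. It was lower in the progressed tumor, at 8253 against 9452 CPM, where Gzma of 1 NK_T cell gave 554 of the 920 UMIs of NK_T. The higher genes included Prf1 (log2 ratio 4.33), Nkg7 (3.0), Ctsw (cathepsin W, 269 against 142 UMIs), Ctsc (cathepsin C, which activates granzymes, 71 against 43 UMIs), Cst7 (cystatin F, which holds cathepsins back, 88 against 64 UMIs) and Gzmc. The lower genes included Gzma, at 0 against 92 UMIs, and Gzmb. Of 31 NK receptor and adaptor genes, 21 had at least 20 UMIs, of which 6 were at least 2-fold higher and 8 lower. Their median log2 ratio was 0.052, while the sum was 1.25 higher (1.15 to 1.34). The sum stood at 8674 against 3652 CPM, of which the adaptor Fcer1g alone gave 3323 and 528 CPM. More genes of the list were thus lower than higher. Fcer1g, the Fc receptor gamma chain, stood at 4400, 3323 and 3682 CPM in the 3 tumors, in the range of the macrophages (3827, 4168 and 4346 CPM), against 818, 528 and 627 CPM in NK_T, where 1 cell held 56 of the 61 UMIs of the progressed tumor. Its partner adaptor Tyrobp was lower than in NK_T in the untreated tumor (26 against 909 CPM) and in the regressed tumor (293 against 520 CPM) and near it in the progressed tumor (469.5 against 452 CPM). In the progressed tumor 37 of its 38 UMIs in the members came from the 3 cells rich in MHC class II described below, and 40 of the 44 in NK_T from 1 cell. Its share of members after thinning was 0%, 16.1% and 12.5%, against 6.00%, 14.0% and 2.62% of stroma cells. Klrd1, Klrk1 and Cd244a, receptors of NK and T cells, were above NK_T in each tumor, with Klrd1 at 1067, 1525 and 1001 CPM against 306, 186 and 216 CPM.

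The receptor complex list had 19 genes with at least 20 UMIs, 6 at least 2-fold higher and 4 lower, and its sum was 1.65 higher (1.59 to 1.72). The 4 lower genes were Cd5, Cd6, Cd27 and Cd28. Genes that mark helper cells and type 2 innate lymphoid cells lay lower: of 11 listed, 6 had at least 20 UMIs and 5 of these were at least 2-fold lower. Il7r, the interleukin 7 receptor, had 0 UMIs in the members of any tumor and 28, 388 and 23 in NK_T, which put it at least 46.8-fold lower in the regressed tumor. Rora, a transcription factor of innate lymphoid cells, had 1, 2 and 1 UMIs against 45, 180 and 26. Of 8 regulatory T cell genes 1 was at least 2-fold higher, Tnfrsf9, and 5 lower, among them Foxp3 at 0 against 63 UMIs. Of 10 genes listed for gamma delta T cells, 7 had at least 20 UMIs and 6 of these were lower, among them the interleukin 17 genes Il17a and Il17f at 0, while Cd163l1 had 23 UMIs against 119. All 3 coreceptor genes were at least 2-fold lower.

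Among the 11 checkpoint genes, 7 had at least 20 UMIs, 2 were at least 2-fold higher and 3 lower. Ctla4 and Pdcd1, inhibitory receptors of activated T cells, had 0 UMIs in every tumor, against 144 and 20 in NK_T of the regressed tumor. Lag3, an inhibitory receptor that binds MHC class II, was higher at 260, 200.3 and 408 CPM against 57.9, 46.4 and 0 CPM, and Cd96 at 417, 498 and 247 CPM against 74.4, 74.3 and 61.6 CPM. The secreted products differed in the same split way, with 2 genes higher and 4 lower of 11 with at least 20 UMIs. Xcl1 stood at 1432, 1279 and 1198 CPM against 702, 318 and 71.9 CPM, whereas Ccl5, a chemokine of effector T and NK cells, had 0, 2 and 1 UMIs against 126, 370 and 76. Ifng, the interferon gamma gene, had 0 UMIs in the members of each tumor and 6, 14 and 5 in NK_T.

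Of 20 homing and tissue residency genes, 14 had at least 20 UMIs, 3 were at least 2-fold higher and 8 lower. The integrin gene Itgae (CD103), which holds T cells in epithelium, stood at 469, 478 and 198 CPM against 140, 162 and 175 CPM, so it was higher in the untreated and the regressed tumor and near NK_T in the progressed tumor. Cx3cr1, the fractalkine receptor, was at 130, 241 and 259 CPM against 0, 22.3 and 0 CPM. Ccr2, Cxcr3 and S1pr1, receptors of circulating and recruited cells, were lower, with Ccr2 at 11 against 389 UMIs in the regressed tumor. Among 22 transcription factors, 18 had at least 20 UMIs, 2 were at least 2-fold higher and 9 lower. Runx3, a factor of cytotoxic lymphocytes, stood at 495, 642 and 432 CPM against 132, 167 and 134 CPM, and Ikzf3 (Aiolos) had 0 UMIs in each tumor against 12, 81 and 8. Of 16 cytokine receptors, 14 had at least 20 UMIs, 2 were higher and 5 lower, and Il12rb2 stood at 833, 293 and 173 CPM against 24.8, 11.1 and 30.8 CPM. Of 18 interferon-stimulated genes, 12 had at least 20 UMIs, 3 were higher, with Bst2 (tetherin) at 503 against 92.9 CPM, and 2 lower. All 14 genes of the MHC class I list had at least 20 UMIs, 0 were higher and 6 were at least 2-fold lower, with a median log2 ratio of -0.71 against 0.044 over all genes.

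The genes named next are the 15 each way whose interval had its nearer bound farthest from 0, taken from genes with the same direction in all 3 tumors, so that their direction is fixed by the choice. Among the higher genes, Avil had 24, 124 and 27 UMIs against 0 in NK_T of each tumor, at least 114-fold higher in the regressed tumor. Ctnnd2, a catenin best known from neurons, had 11, 57 and 20 UMIs, and Kir3dl1 had 7, 52 and 12, also against 0. Each of the 3 was thus found in the members of every tumor and in 0 NK_T cells. Klrb1b, the receptor NKR-P1B, had 24, 97 and 63 UMIs against 0, 4 and 0, a log2 ratio of 6.07 (4.66 to 7.97) in the regressed tumor. Hpse, the heparan sulfate cleaving enzyme heparanase, had 15, 35 and 9 UMIs against 0. Col27a1, a fibrillar collagen gene, had 26, 98 and 59 against 0, 6 and 0. The other higher genes were Cd7 (log2 ratio 4.67, 4.38 to 4.98), Kir3dl2, Trpm6, Arap3, Atp1b1, Olfm3, Cntn1, Trat1 (4.15, 3.66 to 4.66) and Unc5b. Among the lower genes, Icos, a costimulatory receptor, had 1 UMI against 219 in the regressed tumor, Ms4a4b 1 against 229, and Gimap4, a GTPase of lymphocyte survival, 0 against 116. AW112010, a transcript of lymphocytes induced by interferon, had 19 UMIs against 896, a log2 ratio of -4.09 (-4.83 to -3.44). The others were Il7r, Ccl5, Ctla4, Gmfg-ps, Ltb4r1, Tnfrsf4, Tspan32, Rora, Klrg1, Ly6c2 and Ikzf3.

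**Figure D3:**
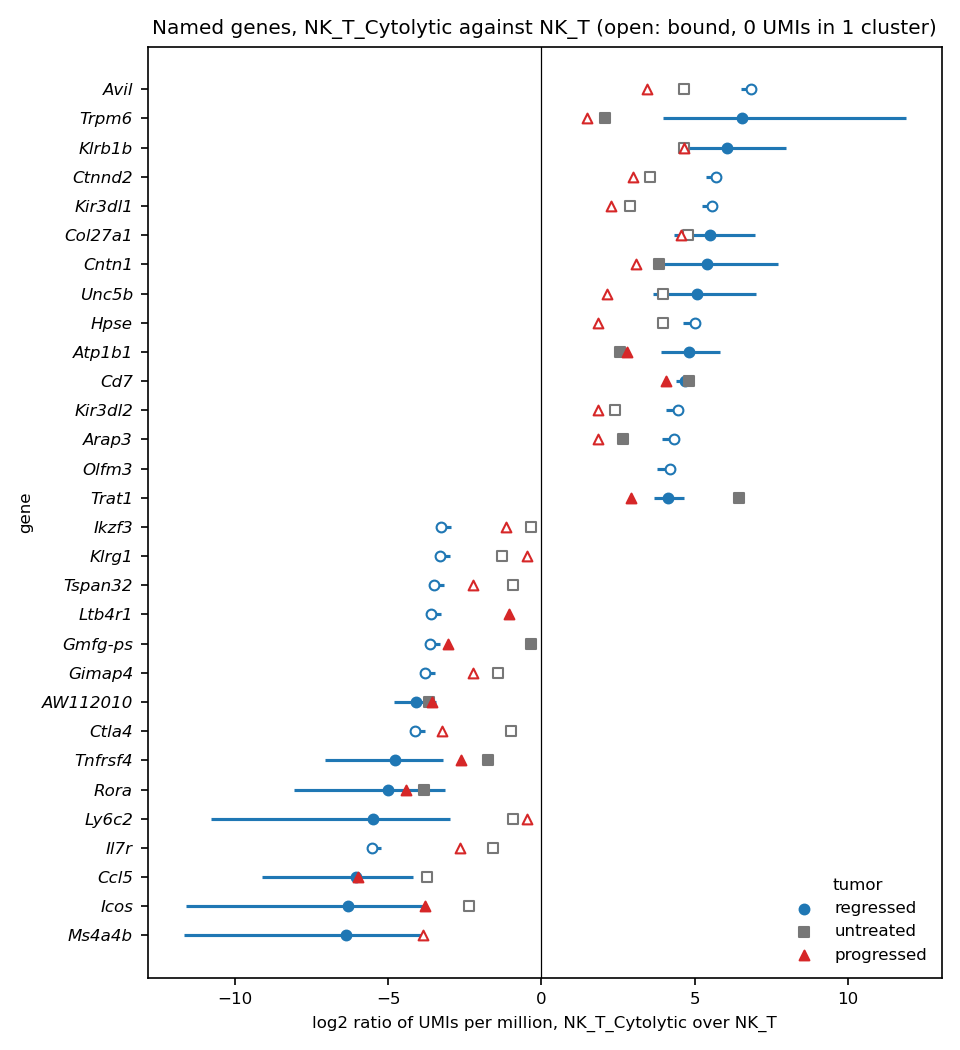
Log2 ratio of CPM in NK_T_Cytolytic over NK_T (x axis) for the 30 named genes (y axis) in the regressed tumor, with its 95% counting interval, and in the untreated and progressed tumors. Open symbols are bounds from a floor of 3 UMIs where 1 cluster has 0 UMIs, such as Avil at 124 against 0 UMIs and Il7r at 0 against 388 UMIs in the regressed tumor.

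The members were not alike in every gene. Cells with many transcripts of MHC class II genes (Cd74, H2-Aa, H2-Ab1 and H2-Eb1), which present antigen and mark dendritic cells and macrophages, were few. The members held 9, 663 and 1021 UMIs of these genes. Of these, 435 UMIs (65.6%) came from 1 cell of the regressed tumor and 1001 (98.0%) from 3 cells of the progressed tumor, which held 49 to 722 UMIs each. No other member exceeded 5, 13 and 2 UMIs in the 3 tumors. The same cells held 71 of the 128 C1q UMIs of the regressed and 105 of the 108 of the progressed tumor, C1q being a product of macrophages, and 28 of 57 and 37 of 38 Tyrobp UMIs. They also held Cd3g, with 26 UMIs in the cell of the regressed tumor and 5 to 23 in those of the progressed tumor. Dcn (decorin, a fibroblast gene) reached at least 20 UMIs in 2 members of the regressed tumor (21 and 72 UMIs) and 3 of the progressed tumor (49 to 60 UMIs). Top2a, a gene of dividing cells, was found in 0, 4 and 2 members.

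**Figure D4:**
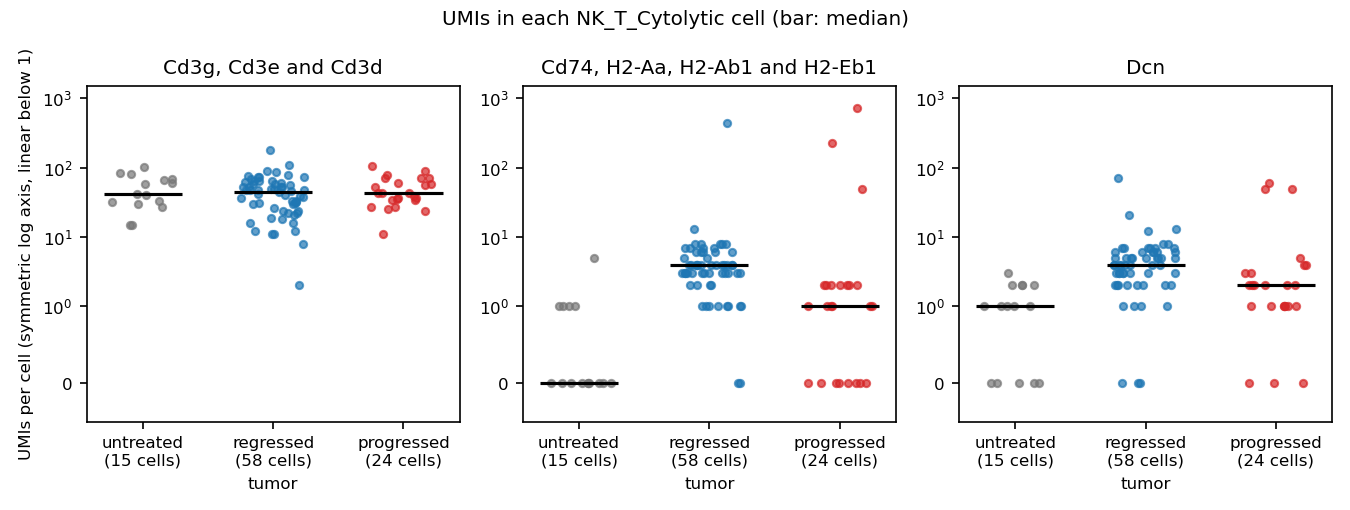
UMIs per cell in each NK_T_Cytolytic cell by tumor (x axis), for gene sums named above each panel, on a symmetric log axis that is linear below 1, with a bar at the median. The Cd3 sum has a median of 42, 45 and 43 UMIs in the 3 tumors, while the MHC class II sum is 20 UMIs or more in 1 cell of the regressed and 3 cells of the progressed tumor.

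Genes of other cell types were measured in the members of each tumor for comparison with the results below. The 12 macrophage genes summed to 495, 3045 and 4522 CPM, and 7, 0 and 1 of them were at 0. The 11 dendritic cell genes, which include MHC class II genes, summed to 234, 2886 and 10662 CPM, while the defining genes Flt3, Xcr1, Cd207 and Clec9a were at 0 in each tumor. The 10 fibroblast genes summed to 1901, 4427 and 4880 CPM, the 10 keratinocyte genes to 182, 1469 and 358 CPM, the 8 neutrophil genes to 1172, 514 and 49.4 CPM, and the 8 mast cell genes to 156, 734 and 136 CPM. The 7 B and plasma cell genes stayed at 0, 25.7 and 24.7 CPM, the 8 endothelial genes at 52.1, 66.8 and 37.1 CPM and the 8 melanoma genes at 104, 128 and 86.5 CPM.

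Between tumors, the cells of the regressed tumor were first set against the untreated tumor. Of 2389 genes with at least 20 UMIs over both, 409 were at least 2-fold higher in the regressed tumor (17.1%) and 197 at least 2-fold lower (8.25%). TMM scaling raised the ratios by 0.27 on the log2 scale and gave 586 higher and 99 lower. In the members of the progressed over the regressed tumor, 142 of 2825 genes were at least 2-fold higher (5.03%) and 355 lower (12.6%). For the progressed over the untreated tumor the counts were 89 (8.37%) and 66 (6.21%) of 1063, and 154 and 25 with TMM scaling, which raised these ratios by 0.32. The pairs share tumors and are not independent of each other. Xist, a gene of female cells, had 48, 0 and 178 UMIs in the members, and the Y-linked gene Eif2s3y 0, 26 and 0. In all other cells Xist had 33128, 5 and 46577 UMIs and Eif2s3y 2, 1199 and 1. By these genes the regressed tumor came from a male and the others from females. In pairs with the regressed tumor, sex and treatment thus cannot be told apart.

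The marker and cytotoxic genes stayed within 2-fold between the tumors as lists. Each of the 4 marker genes differed by less than 2-fold in every pair. The sum of the cytotoxic genes was 10544, 8576 and 8253 CPM, a log2 ratio of -0.30 (-0.46 to -0.14) for regressed over untreated and -0.055 (-0.19 to 0.075) for progressed over regressed. With TMM scaling the ratio of regressed over untreated was -0.028. The receptor complex list summed to 29628 CPM, 20450 CPM and 21139 CPM, and its ratio was -0.53 and 0.048 for the same pairs. For regressed over untreated, 4 of its 13 genes with at least 20 UMIs were at least 2-fold lower and 0 higher. Over all genes of that pair, 8.25% were lower and 17.1% higher. The NK receptor list differed by -0.15 (-0.31 to 0.015) and 0.058 (-0.069 to 0.18). In each of the 3 lists both ratios of the sums were therefore short of 2-fold. Il12rb2, 1 of the genes named for progressed over untreated, stood at 833, 293 and 173 CPM, and its ratio of progressed over untreated was -2.27 (-3.29 to -1.32), against 0.31 in NK_T and 0.39 in all other cells. After thinning, 71.4%, 30.4% and 25% of members held an Il12rb2 UMI.

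Genes that respond within minutes to stimulation or stress differed between tumors. Of the 16 immediate early and stress genes listed, 11 had at least 20 UMIs over the regressed and the untreated tumor. Of these, 5 were at least 2-fold lower in the regressed tumor and 3 higher, against 8.25% lower and 17.1% higher over all genes. The sum had a log2 ratio of -0.56 (-0.72 to -0.39), or -0.29 with TMM scaling. For progressed over regressed, 11 had at least 20 UMIs, with 4 higher and 1 lower, against 5.03% and 12.6% over all genes. The ratio of the sum was 0.71 (0.58 to 0.83). The same list moved alike in all other cells of these tumors: with their ratio taken off, 0.12 remained for regressed over untreated and -0.0082 for progressed over regressed. Among the genes named for size, Rgs1, a brake on chemokine receptor signals, stood at 3046, 801 and 1742 CPM. Its ratio of regressed over untreated was -1.93 (-2.28 to -1.57), against -0.67 in NK_T and 0.92 in all other cells. Rgs2 stood at 3359, 1068 and 1964 CPM, Btg2, a growth-restraining early gene, at 1510, 452 and 840 CPM, and Junb, an AP-1 subunit, at 2916, 1150 and 2594 CPM. For regressed over untreated, Rgs2 was at -1.65 in the members, -1.28 in NK_T and -0.22 in all other cells. In the same order Btg2 was at -1.74, -0.21 and -0.75, and Junb at -1.34, -0.35 and -0.71. For each of these 4 genes the regressed tumor was below both others, by less than 2-fold at Rgs2 and Btg2 against the progressed tumor. Socs3, the feedback inhibitor of cytokine signals, stood at 677, 128 and 729 CPM, and its ratio of progressed over regressed was 2.51 (1.81 to 3.24), against 1.61 in all other cells and -0.75 in NK_T. Fos was at 2760, 1289 and 3855 CPM, a ratio of progressed over regressed of 1.58 (1.34 to 1.83), against 1.13 in all other cells. Areg, the growth factor amphiregulin, was at 364, 77 and 494 CPM, from 14, 15 and 40 UMIs, with 10 of the 14 in 1 cell. Jund, another AP-1 subunit, had the opposite order at 234, 1618 and 272 CPM, and its ratio of progressed over regressed was -2.57 in the members and -2.02 in all other cells. The values of the progressed tumor include 6 of 24 cells with at least 1.5% of UMIs from macrophage, dendritic, fibroblast and keratinocyte genes. Without such cells of both tumors, 14 of 42 values of lists and named genes moved for progressed over regressed and 5 turned. Socs3, Fos and Areg were not among those that turned, and their ratios without such cells are not given here. The part of such cells and of differences between libraries in these values was not tested.

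Among the genes higher in the progressed than in the regressed tumor were Cd74 (519 against 280 UMIs, log2 ratio 2.16, 1.94 to 2.37) and H2-Eb1 (160 against 103 UMIs, 1.90). These counts rest on the few cells rich in MHC class II described above. Without the cells in which macrophage, dendritic, fibroblast and keratinocyte genes held at least 1.5% of the UMIs, which were 4 cells of the regressed tumor and 6 of the progressed one, the ratio of Cd74 was -1.95 and that of H2-Eb1 -3.19, so both turned. Ccl11, a fibroblast chemokine, went from 2.85 to -0.51. Ccl2, a monocyte chemokine, had 38 against 3 UMIs, found in 5 of 24 and 3 of 58 members, and its ratio was 2.51 in all other cells. Of its 38 UMIs, 36 lay in the 6 cells left out above, and without those cells too few UMIs were left for a ratio. Cebpd, Coro2a and Gadd45g were also among the 10, the last from a single cell.

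Genes that were lower in the progressed than in the regressed tumor were partly those of other cells. S100a8 and S100a9, the calprotectin genes of neutrophils, fell from 52 to 1 and from 34 to 0 UMIs, and in all other cells their ratios were -5.17 and -5.37. Tpsb2, a mast cell tryptase, fell from 282 to 12.4 CPM with a ratio of -1.39 in all other cells, and the keratin gene Krt15 from 211 to 12.4 CPM with -1.23. Cenpf, a gene of dividing cells, had 27 UMIs against 0, of which 26 came from 1 cell, the deepest of the members at 13816 UMIs. Cd163l1 had 23 UMIs against 0 and came from 11 of 58 members, with 119 against 0 UMIs in NK_T. In the progressed over the untreated tumor, Ly6a was lower at 247 against 1015 CPM, with 21 of its 39 UMIs in the untreated tumor in 1 cell, Lmna (lamin A and C) at 890 against 2109 CPM, Anxa2 at 630 against 1510 CPM and Vim (vimentin) at 3768 against 7368 CPM, a ratio of -0.97 that stayed short of 2-fold. In the regressed over the untreated tumor, an ID with no symbol ranked first, at 338 (untreated), 10831 (regressed) and 198 CPM (progressed). In all other cells it stood at 438, 12642 and 253 CPM. Among genes with a symbol, the higher ones were led by MHC class II genes and genes of other cells. The latter included Gsn (gelsolin, 2958 against 364 CPM), Igfbp7 (837 against 52.1 CPM) and Apoe of the macrophage list (1982 against 286 CPM). In the regressed tumor 1 cell held 435 of the 663 MHC class II UMIs and 72 of the 386 Apoe UMIs. The ratios of Gsn, Igfbp7 and Apoe in all other cells were 1.58, 1.39 and 0.77.

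MHC class I presentation, by which a cell shows peptides to CD8 T cells and restrains NK cells, was also measured in the members. B2m, its light chain, stood at 1536, 1828 and 4176 CPM, from 59, 356 and 338 UMIs, against 3901, 3931 and 5692 CPM in NK_T. The ratio of progressed over regressed was 1.19 for B2m, against 0.53 in NK_T and 0.54 in all other cells, and that of the summed list of 14 genes was 0.59 (0.47 to 0.72). Of the 11 listed genes with at least 20 UMIs, 2 were at least 2-fold higher and 2 lower, against 5.03% and 12.6% over all genes of this pair. B2m was thus higher in the summed members of the progressed tumor while the list as a whole stayed short of 2-fold. The sums include the cells rich in macrophage, dendritic, fibroblast and keratinocyte genes described above. These were 6 of 24 members of the progressed and 4 of 58 of the regressed tumor. Ratios of B2m and of the list without such cells are not given here. The part of these cells in the B2m difference was not tested.

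**Figure D5:**
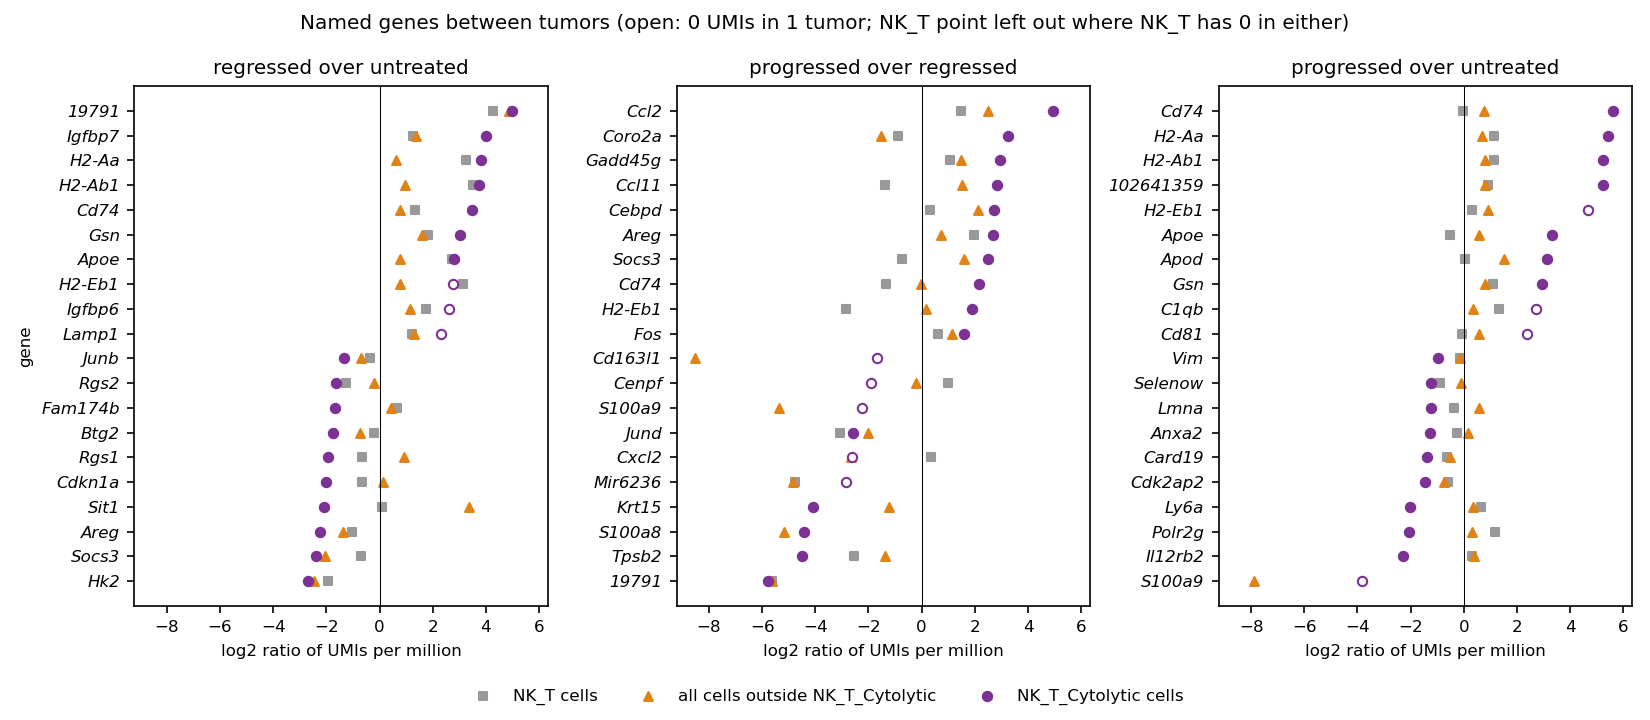
Log2 ratio of CPM (x axis) of the genes named for each pair of tumors (y axis) in NK_T_Cytolytic cells, in NK_T cells and in all other cells. Open symbols mark genes with 0 UMIs in the NK_T_Cytolytic cells of 1 tumor, and no intervals are drawn. For Rgs1 in the regressed over the untreated tumor the members lie at -1.93, NK_T at -0.67 and all other cells at 0.92.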

How the data were processed

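Single cells of 3 mouse melanomas were analysed, 1 tumor per group, so 1 tumor is the unit of every comparison. Per the study's methods, the authors made the libraries with the Chromium 3' droplet kit, aligned reads to build GRCm38 with GSNAP, counted reads that mapped to 1 place and fell on the sense strand of exons, left out cells under 300 UMIs, and clustered with Seurat 2.2.0 on 30 principal components. The annotation release is not given in the sources used here. The authors deposited raw counts of UMIs per gene and cell, whole numbers with no scaling, and the deposited cell table holds other values, the tumor and cluster name of each cell, beside counts of UMIs and genes per cell that the authors made. Genes detected per cell equalled the deposited values in 12670 of 12670 cells. The sums of the count tables, which are the denominator of every CPM, exceeded the deposited UMI totals in each of the 12670 cells, by a median of 3.43 to 3.77% per tumor in the members and 5.13 to 8.14% in NK_T, with a source that was not found. Of 36530 features, 31049 had a symbol in the RefSeq gene table.

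UMIs were summed over the cells of a cluster in a tumor, divided by the sum of all features and written per 1000000 (CPM). Haemoglobin genes, Xist and Y-linked genes were set aside from the ranked genes, with Xist and Eif2s3y given on their own. The 45 duplicate features stayed out of gene counts but not of totals, and 333 of 347 listed genes were analysed. Intervals are exact (Poisson for levels, Clopper-Pearson for shares, conditional binomial for ratios). A gene counted as higher or lower from 2-fold on, among genes with at least 20 UMIs over both sides. A median or count with genes at 0 UMIs uses their bound from the floor of 3 UMIs. No doublet caller was run, since the methods state none. Alternatives left out the deepest 5% of cells or cells rich in other types' genes. Thinning to 1000 UMIs per cell used a fixed seed and left out 1 of 15, 2 of 58 and 0 of 24 members. Immune clusters were Macrophages, Monocytes1, Monocytes2, Neutrophils, Mast cells, NK_T and NK_T_Cytolytic.

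The rule for named genes took the listed genes, the 25 genes with the largest ratio to the mean of the other clusters (UMIs in at least 20% of members), the 15 genes each way against NK_T with the same direction in every tumor, and the 10 genes each way for each pair of tumors, ranked by the nearer interval bound. IDs with no symbol were not named, and genes of the rule not named in the text were left out. The genotype is given in part, and the rest of it and some listed genes are not reported here. The members and lists were chosen with earlier results of these data known. Ratios were tested on simulated data. Python 3.11.15 with numpy 2.4.6, pandas 2.3.3, scipy 1.17.1 and matplotlib 3.10.9 was used, and edgeR 4.0.16 in R 4.3.3 for TMM scaling.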

Additional observations from a re-analysis of the deposited data

How the results depend on the processing

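No paired analysis was possible because each group held 1 tumor, and for the same reason no replicate could be left out. Of 1180 alternative values of lists and named genes, 907 stayed within their counting interval or bound, 256 moved beyond it and 17 turned from a ratio of at least 2-fold. Leaving out cells with at least 5 UMIs of macrophage, dendritic, fibroblast and keratinocyte genes could not be run, because that removed 58 of 58 regressed, 22 of 24 progressed and 12 of 15 untreated members. A threshold of 1.5% of a cell's UMIs, and ratios less those of all other cells, were chosen after seeing the data. Except where a construction shows it (fewer cells or UMIs, more genes tested, another denominator), the cause was not tested.

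As shares of all cells the members were 0.366% (untreated), 1.56% (regressed) and 0.495% (progressed), and as shares of NK_T and NK_T_Cytolytic together 37.5%, 24.4% and 58.5%. Against NK_T, the log2 ratio of the cytotoxic list was 1.27 with TMM scaling, 0.99 with the tumors summed, 1.59 after thinning, 1.61 with cells weighted equally and 1.62 without the deepest cells. That of the receptor complex list was 1.49 with TMM scaling, 1.77 with the tumors summed and 1.73 without the deepest cells, and that of NK receptors 1.08 with TMM scaling. Genes at least 2-fold higher and lower against NK_T were 231 and 344 after thinning and 5322 and 1379 with a minimum of 1 UMI.

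Between tumors, in the order regressed over untreated, progressed over regressed and progressed over untreated, genes higher numbered 89, 43 and 23 after thinning and 780, 4544 and 645 with a minimum of 1 UMI, and genes lower 52, 67 and 7 and 6772, 1388 and 5030. With TMM scaling 99 were lower for the first pair, and 154 higher and 25 lower for the last. With NK_T added, 1447, 336 and 244 were higher, and 1182 and 128 lower for the last pairs. Less the ratio in all other cells, 267 were higher for progressed over regressed. For progressed over untreated, 43 were lower without the deepest cells, and 43 higher and 37 lower without cells at 1.5% or more. The cytotoxic list, in the same order of pairs, stood at -0.57, 0.95 and 0.38 with NK_T added and at -0.058, 1.05 and 0.99 less the ratio in all other cells. For regressed and for progressed over untreated it stood at -0.028 and -0.031 with TMM scaling and at -0.12 and -0.12 without the deepest cells. For progressed over untreated it stood at -0.16 with cells weighted equally and 0.0018 without cells at 1.5% or more, where progressed over regressed gave 0.26.

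The direction turned as follows. With NK_T added, the helper list went to 0.14 for regressed over untreated and -0.041 for progressed over regressed, and the fibroblast list to -0.54 and -0.24 for regressed and progressed over untreated. After thinning, the cell cycle list went to -0.093 for regressed over untreated. Less the ratio in all other cells, the neutrophil list went to 1.28, 0.95 and 2.23 for the 3 pairs, the mast cell list to -0.98 for regressed over untreated, and S100a8 to 0.74 and the erythrocyte list to 1.68 for progressed over regressed. Without cells at 1.5% or more, the macrophage list went to -0.31 for progressed over untreated, and for progressed over regressed Ccl11 went to -0.51, the dendritic list to -1.90, Cd74 to -1.95, MHC class II to -2.02 and H2-Eb1 to -3.19.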

Other observations

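Cells with at least 5 UMIs of the CD3 chains and at least 5 UMIs of Cd7, a pairing chosen after values were seen, were counted in all clusters. Within NK_T_Cytolytic they were 15 of 15 members in the untreated, 56 of 58 in the regressed and 23 of 24 in the progressed tumor. NK_T held 2 such cells in each tumor. Outside both, the Dividing cluster held 1 of 43 cells in the untreated and 3 of 75 in the regressed tumor, Macrophages 1 in the progressed, Monocytes1 1 in the untreated and Monocytes2 1 in the progressed tumor.

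Cd7 itself was not limited to lymphocytes. The Monocytes2 cluster held it at 183 CPM in the untreated, 455 CPM in the regressed and 92.8 CPM in the progressed tumor, and in the regressed tumor this was above the 197 CPM of NK_T. Klrd1 behaved alike, with 239 CPM in Monocytes2 of the regressed tumor against 186 CPM in NK_T. Prf1 had 0, 2 and 2 UMIs in Monocytes2.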
